A study of Bos taurus with 14 samples.

Results

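Heat shock proteins and molecular chaperones bind unfolded or partly folded proteins, keep them from aggregating and help them to fold. In the cytosol, HSP70 proteins work in a cycle with J-domain proteins and nucleotide exchange factors and pass some clients on to HSP90, and the stress-induced members of this system are switched on by heat shock factors when proteins are damaged. Small heat shock proteins hold unfolding proteins without using ATP and are abundant in striated muscle, where they associate with the sarcomere and the cytoskeleton. The endoplasmic reticulum (ER) and the mitochondrion have their own chaperones, which answer to the unfolded protein responses of those compartments.

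The genes examined here were *HSPA1A*, *HSPA8*, *HSP90AA1*, *HSP90AB1*, *HSPH1* and *DNAJB1* of the cytosolic HSP70 and HSP90 system, the small heat shock genes *HSPB1* and *CRYAB*, the ER chaperone gene *HSPA5* and the mitochondrial chaperone gene *HSPD1*. On the array each transcript is read by short oligonucleotides grouped into a probe set. A probe set was included when its single gene symbol was that of one of these 10 genes, with none dropped. This gave 23 of the 24016 bovine probe sets. The arrays came from *M. longissimus dorsi* (LD) muscle of Charolais × Limousin crossbred heifers, 7 of them outdoor/pasture-fed and 7 indoor/concentrate-fed, with 1 Affymetrix GeneChip Bovine Genome Array per animal. The outdoor/pasture-fed heifers grazed ryegrass, meadow grass and white clover, while the indoor/concentrate-fed heifers were housed throughout and ate a concentrate based on beet pulp and barley together with straw. Diet and housing therefore differed together and cannot be told apart. Muscle was taken after slaughter from animals that had been managed in several groups per system, and the animals were treated as independent samples in every test.

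Values are the authors' log2 expression values, so that a difference of 1 is a doubling. Each difference subtracts the mean of the indoor/concentrate-fed arrays from that of the outdoor/pasture-fed arrays and comes with the standard error (SE) from limma. This is a linear model fitted to every probe set, whose own spread is moved towards a value shared by all. Here the shared value had little weight. Adjusted p-values are Benjamini-Hochberg values over all 24016 probe sets. The summary method used by the authors, FARMS, gave nearly constant values for 14393 probe sets (59.9%). The other 9623, whose standard deviation (SD) across the 14 arrays exceeded 0.01, are called varying. Only 4 probe sets, 0.0167% of those tested, passed an adjusted p of 0.05, of which 3 read *KLF11* and 1 has no symbol in the annotation used here, and 33 (0.343%) passed when the fit was restricted to the varying ones. Markers of the muscle fibre were at high levels on all arrays, with *TPM1* averaging 11.28 and *TPM2* 14.16. Two-sided exact permutation tests over all 3432 assignments of the arrays to 7 and 7 are given beside the limma results, and the smallest p they can give is 0.000583.

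No heat shock or chaperone probe set passed the adjusted threshold. The lowest adjusted p among the 23, that of *HSPH1*, was 0.234, or 0.0928 when only varying probe sets were fitted. Of the 23 probe sets, 3 were flat, 1 each for *HSPA1A*, *HSPA5* and *HSPH1*, with differences no larger than 8.1e-06, and 20 varied. Among these 20 the mean was lower in the outdoor/pasture-fed group for 19 and higher for 1. Over all varying probe sets 52.5% were lower. An unadjusted p under 0.05 was reached by 13 of the 20, from 8 of the 10 genes, and all 13 were lower in the outdoor/pasture-fed animals. The same criterion was met downwards by 10.7% and upwards by 9.23% of all varying probe sets. The median difference of the 20 was -0.31, against -0.0077 over all varying probe sets. In none of the 20 did the 2 groups lie fully apart, a separation seen downwards in 0.322% of the varying probe sets. Several of the 20 read the same transcript and all come from the same animals, so they are not independent of each other. The 10 genes were also chosen with earlier results of these data known.

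**Figure D1:**
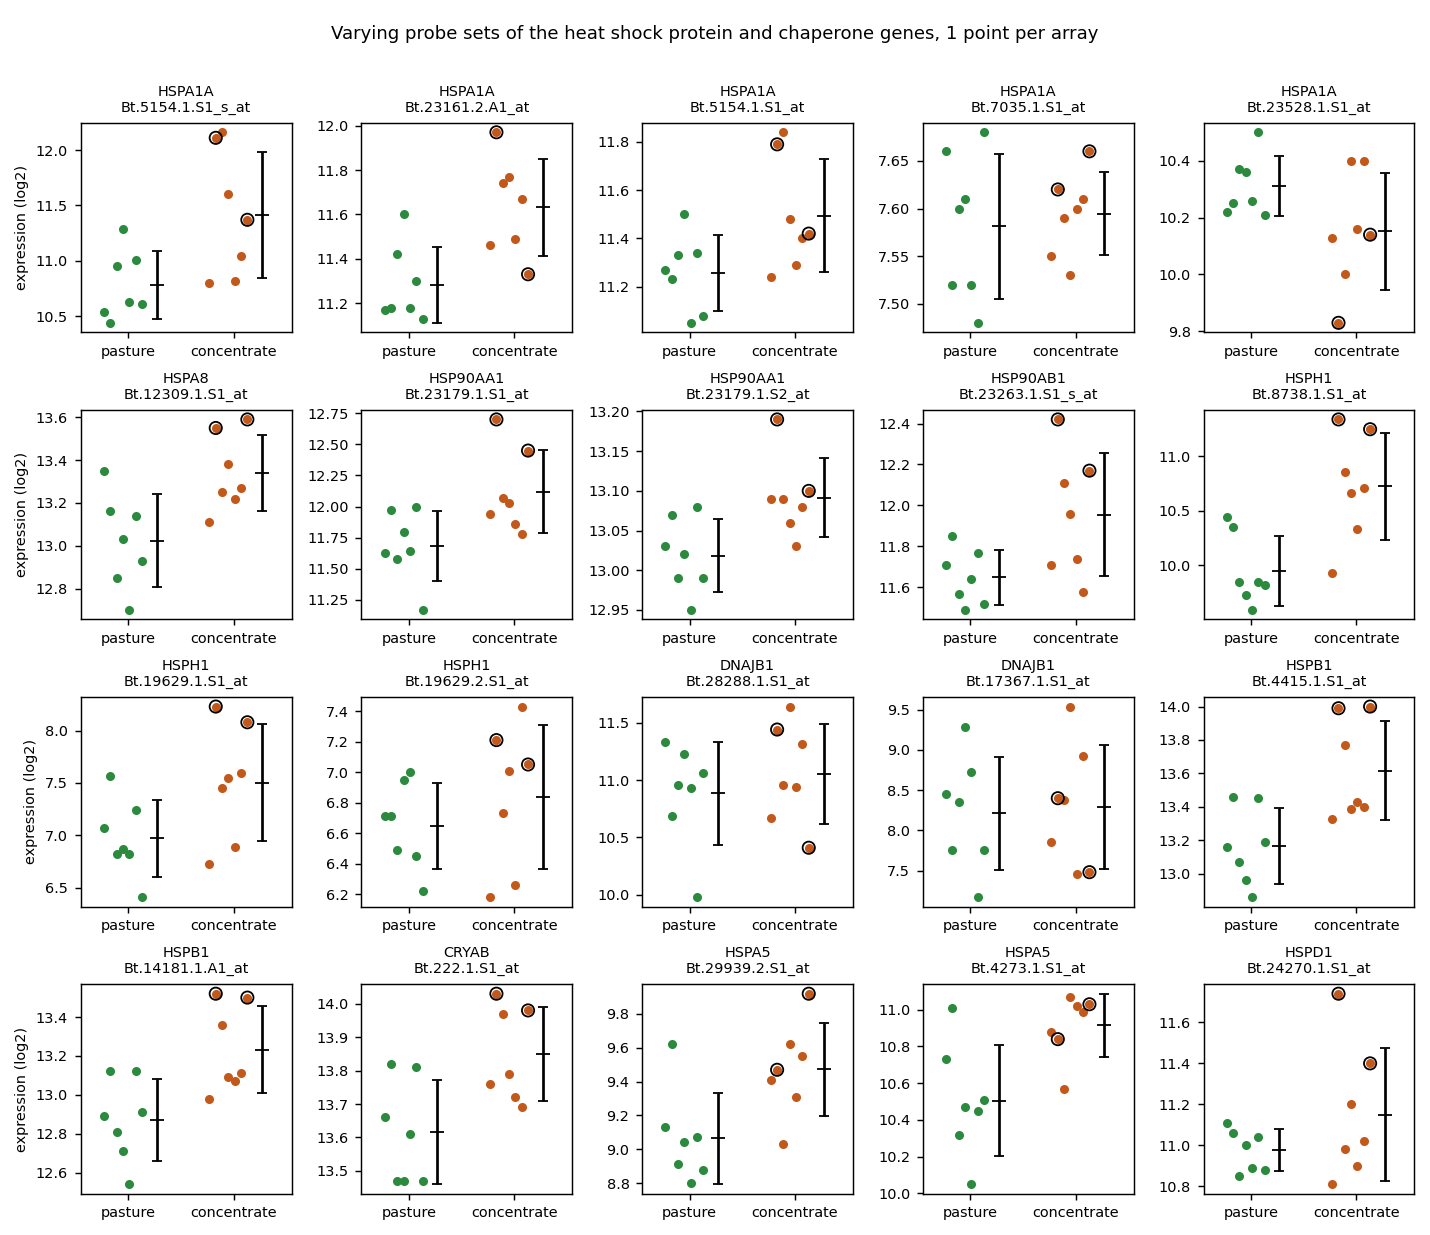
Expression (log2, y axis, a separate scale in each panel) of the 20 varying probe sets, with 1 point per array, outdoor/pasture-fed arrays in green on the left and indoor/concentrate-fed arrays in orange on the right. Bars show the mean and SD of 7 arrays, and open circles mark indoor/concentrate-fed replicates 2 and 7, which are at or near the top of most panels while every panel shows some overlap of the groups.

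The cytosolic genes had the widest span of differences, from -0.78 to 0.16 over 14 varying probe sets, of which 8 were lower at an unadjusted p under 0.05. *HSPH1* encodes HSP110, a relative of HSP70 that acts as its nucleotide exchange factor. Probe set Bt.8738.1.S1_at of this gene ran from 9.59 through a median of 9.85 to 10.44 in outdoor/pasture-fed muscle, against 9.93, 10.71 and 11.34 in indoor/concentrate-fed muscle. The groups overlapped where outdoor/pasture-fed replicates 1 and 2 were above indoor/concentrate-fed replicates 1 and 5, and the other 5 outdoor/pasture-fed arrays lay below every indoor/concentrate-fed one. The difference was -0.78 (SE 0.22, limma adjusted p = 0.234, exact permutation p = 0.00641), which is 41.7% lower on the linear scale. Of the other 3 *HSPH1* probe sets, Bt.19629.1.S1_at differed by -0.53 (SE 0.25, exact permutation p = 0.06), Bt.19629.2.S1_at by -0.19 (SE 0.21, exact permutation p = 0.353), and the last was flat at 5.58. Over the 14 arrays Bt.8738.1.S1_at and Bt.19629.1.S1_at had a Pearson r of 0.89.

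*HSPA8* encodes HSC70, the HSP70 protein that is made in unstressed cells. Its only probe set lay at 12.70, 13.03 and 13.35 (lowest, median and highest) in the outdoor/pasture-fed group and at 13.11, 13.27 and 13.59 in the indoor/concentrate-fed group. Outdoor/pasture-fed replicate 5 was the lowest array and indoor/concentrate-fed replicates 7 and 2 were the highest. The difference was -0.32 (SE 0.10, limma adjusted p = 0.28, exact permutation p = 0.0146).

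*HSPA1A*, the stress-induced HSP70 gene, was read by 6 probe sets that did not report a single pattern. Near-identical copies of this gene exist in mammals, and short probes cannot be assumed to separate them, so its values are uncertain as to the copy. The 2 probe sets of the Bt.5154.1 cluster also carry another gene identifier than the other 4, one that the ARS-UCD2.0 gene table does not list. Probe set Bt.5154.1.S1_s_at ranged over 10.44, 10.63 and 11.29 in outdoor/pasture-fed animals and over 10.80, 11.37 and 12.16 in indoor/concentrate-fed animals. Indoor/concentrate-fed replicates 3 and 2 were the highest arrays at this probe set, while replicates 1, 5 and 6 of that group were among the outdoor/pasture-fed values. It differed by -0.63 (SE 0.24, limma adjusted p = 0.345, exact permutation p = 0.0256).

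A second *HSPA1A* probe set, Bt.23161.2.A1_at, lay at 11.13, 11.18 and 11.60 in the outdoor/pasture-fed group and 11.33, 11.67 and 11.97 in the indoor/concentrate-fed group, with 5 outdoor/pasture-fed arrays below every indoor/concentrate-fed one. Its difference was -0.35 (SE 0.10, limma adjusted p = 0.247, exact permutation p = 0.00699). For Bt.5154.1.S1_at the difference was -0.24 (SE 0.11, exact permutation p = 0.0455). These 3 probe sets agreed over the arrays, with Pearson r between 0.85 and 0.94. The other 2 varying *HSPA1A* probe sets did not follow them. Bt.23528.1.S1_at was the only varying member probe set with a higher mean in the outdoor/pasture-fed group, at 10.31 ± 0.11 against 10.15 ± 0.20 in the indoor/concentrate-fed group (SD, n = 7 each), a difference of 0.16 with a limma adjusted p of 0.52. Its Pearson r with the first 3 ran from -0.34 to -0.46. Bt.7035.1.S1_at differed by only -0.01 (SE 0.03, exact permutation p = 0.74).

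*HSP90AA1* encodes the stress-induced and *HSP90AB1* the constitutive cytosolic HSP90. At *HSP90AA1* probe set Bt.23179.1.S1_at the outdoor/pasture-fed arrays lay at 11.17, 11.64 and 12.005 and the indoor/concentrate-fed arrays at 11.78, 12.03 and 12.70, a difference of -0.43 (SE 0.16, limma adjusted p = 0.335, exact permutation p = 0.0163). The second probe set of the gene, Bt.23179.1.S2_at, varied much less, over 12.95, 13.02 and 13.08 in outdoor/pasture-fed and 13.03, 13.09 and 13.19 in indoor/concentrate-fed muscle. Its difference was -0.07 (SE 0.02, limma adjusted p = 0.287, exact permutation p = 0.00816), and 5 outdoor/pasture-fed arrays lay below all indoor/concentrate-fed ones. The 2 probe sets thus ordered the arrays alike (Pearson r 0.87 over 14 arrays) while giving differences of unlike size.

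*HSP90AB1* was read by 1 probe set whose name ends in _s_at, a suffix for probes that can match more than 1 transcript. It lay at 11.49, 11.64 and 11.85 in the outdoor/pasture-fed group and at 11.58, 11.96 and 12.42 in the indoor/concentrate-fed group, with an SD of 0.13 outdoors and 0.30 indoors. Indoor/concentrate-fed replicate 2 was the highest array and replicate 6 of the same group was among the low outdoor/pasture-fed ones. The difference was -0.31 (SE 0.12, limma adjusted p = 0.36, exact permutation p = 0.0286).

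*DNAJB1* encodes HSP40, a stress-induced J-domain protein that delivers clients to HSP70 and stimulates its ATPase. Its probe set Bt.28288.1.S1_at lay at 9.98, 10.96 and 11.33 in outdoor/pasture-fed animals and at 10.41, 10.96 and 11.64 in indoor/concentrate-fed animals. The medians thus coincided, and the difference was -0.17 (SE 0.23, limma adjusted p = 0.848, exact permutation p = 0.492). Probe set Bt.17367.1.S1_at spread over 7.17, 8.35 and 9.28 and over 7.46, 8.38 and 9.54 in the same order of groups, with a difference of -0.08 (SE 0.39, exact permutation p = 0.837). At this probe set the spread within groups was the widest of the 20, with an SD of 0.70 outdoors and 0.77 indoors. Indoor/concentrate-fed replicate 4 was the highest array and outdoor/pasture-fed replicate 6 the lowest at both probe sets.

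**Figure D2:**
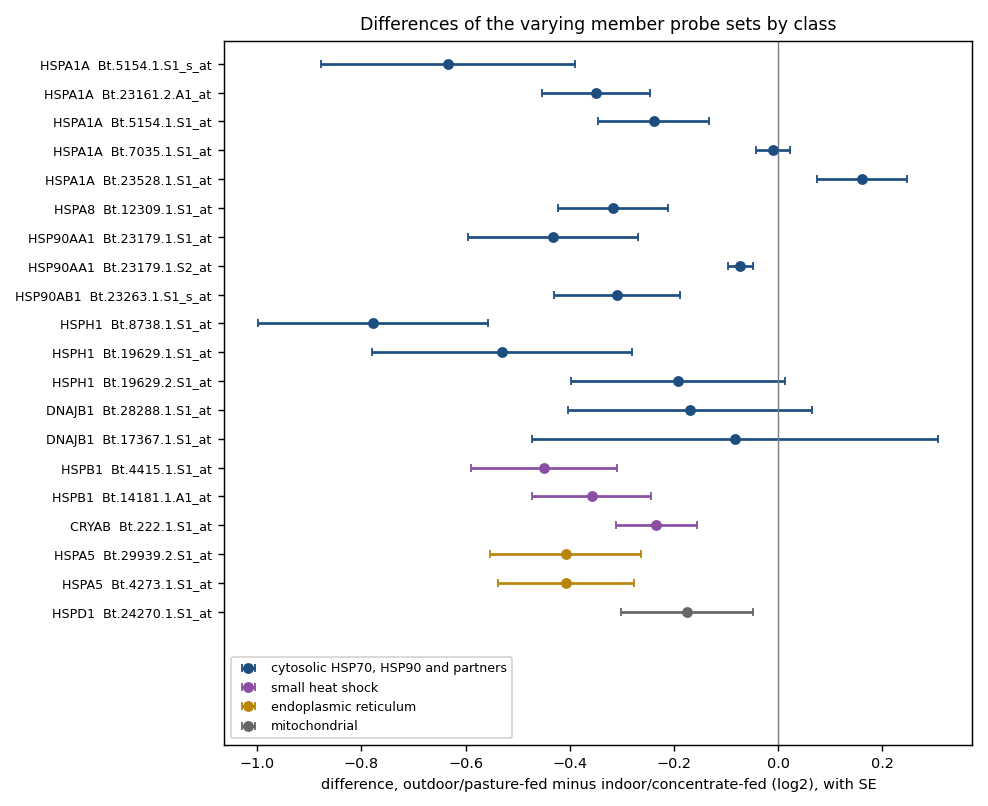
Difference in log2 expression (x axis, outdoor/pasture-fed minus indoor/concentrate-fed, bars are the SE from limma) of the 20 varying probe sets, coloured by class. All points but 1, an *HSPA1A* probe set at 0.16, lie below 0, and the largest difference is the -0.78 of an *HSPH1* probe set.

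The small heat shock genes differed in the same direction at all 3 of their probe sets, each at an unadjusted p under 0.05. *HSPB1* encodes HSP27, which binds actin filaments and partly unfolded proteins. Its probe set Bt.14181.1.A1_at lay at 12.54, 12.89 and 13.12 in outdoor/pasture-fed muscle and at 12.98, 13.11 and 13.52 in indoor/concentrate-fed muscle. Outdoor/pasture-fed replicates 2 and 6 reached the indoor/concentrate-fed range, and the other 5 lay below it. The differences were -0.36 at this probe set (SE 0.11, limma adjusted p = 0.269, exact permutation p = 0.00991) and -0.45 at Bt.4415.1.S1_at (SE 0.14, limma adjusted p = 0.262, exact permutation p = 0.00874). Over the 14 arrays the 2 had a Pearson r of 0.99, the closest agreement between any probe sets of 1 member.

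*CRYAB* encodes alpha-B-crystallin, a small heat shock protein that binds desmin and titin in muscle. Its values were 13.47, 13.61 and 13.82 in the outdoor/pasture-fed group and 13.69, 13.79 and 14.03 in the indoor/concentrate-fed group. The same outdoor/pasture-fed replicates, 2 and 6, overlapped with the indoor/concentrate-fed arrays, and the other 5 were below them all. The difference was -0.23 (SE 0.08, limma adjusted p = 0.282, exact permutation p = 0.0157).

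*HSPA5* encodes BiP, the HSP70 of the ER. At probe set Bt.4273.1.S1_at the outdoor/pasture-fed arrays lay at 10.05, 10.47 and 11.01 and the indoor/concentrate-fed arrays at 10.57, 10.99 and 11.07. Here 5 outdoor/pasture-fed arrays were below every indoor/concentrate-fed array, and indoor/concentrate-fed replicate 3, one of the highest arrays for *HSPA1A*, was the lowest of its group. The differences of the 2 varying *HSPA5* probe sets were -0.41 each, with SE 0.13 and 0.15, limma adjusted p = 0.271 and 0.306, and exact permutation p = 0.0111 and 0.021.

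*HSPD1* encodes HSP60, the chaperonin of the mitochondrial matrix. Its values were 10.85 to 11.11 with a median of 10.9985 in the outdoor/pasture-fed group and 10.81 to 11.74 with a median of 11.0243 in the indoor/concentrate-fed group. The medians lay close together, and the mean was pulled upwards in the indoor/concentrate-fed group by replicates 2 and 7. The difference was -0.17 (SE 0.13, limma adjusted p = 0.655, exact permutation p = 0.214).

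The arrays were not equal in their part in these differences. Indoor/concentrate-fed replicate 2 was among the 3 highest of the 14 arrays at 15 of the 20 varying probe sets and replicate 7 of that group at 14, while outdoor/pasture-fed replicates 7, 3 and 5 were among the 3 lowest at 13, 11 and 10. Both indoor/concentrate-fed arrays were also left out, a choice made after their values were seen. This left 18 of the 20 probe sets lower in the outdoor/pasture-fed group. The median difference was then -0.22, against -0.0085 over all varying probe sets. The share of all varying probe sets at an unadjusted p under 0.05 without these arrays is not given here. By that criterion 6 instead of 13 of the 20 were lower. These 6 were 1 of *HSPA1A* (Bt.23161.2.A1_at, -0.34), 1 of *HSP90AA1* (Bt.23179.1.S2_at, -0.05), 1 of *HSPH1* (Bt.8738.1.S1_at, -0.55), both of *HSPB1* (-0.30 and -0.25) and 1 of *HSPA5* (Bt.4273.1.S1_at, -0.40).

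The genes depended on these arrays to unlike degrees. At *HSPA5* probe set Bt.4273.1.S1_at the difference without them was 98.0% of that over all arrays, at *CRYAB* 74.1%, at *HSPA8* 70.8%, at *HSP90AB1* 56.4% and at *HSPD1* 4.37%, where it became -0.0076. For *DNAJB1* the differences were larger without them, at -0.22 for both probe sets. When 1 array was left out, the difference at *DNAJB1* probe set Bt.28288.1.S1_at ran from -0.28 (without indoor/concentrate-fed replicate 7) to -0.02 (without outdoor/pasture-fed replicate 6). At Bt.17367.1.S1_at it ran from -0.26 (without outdoor/pasture-fed replicate 4) to 0.13 (without indoor/concentrate-fed replicate 4). Indoor/concentrate-fed replicates 2 and 7 had the lowest 3′ minus 5′ values of the control transcript *eIF-4E*, at 1.62 and 1.63. These values ran from 1.76 to 2.18 outdoors and from 1.93 to 2.13 on the other 5 indoor arrays. This measure, used as a sign of transcript integrity, overlapped between the groups (exact permutation p = 0.404), as did the array medians (exact permutation p = 0.702). For the control transcript *ef1a* it ran from -2.38 to -1.64 outdoors and from -1.91 to -1.28 indoors (exact permutation p = 0.0973). For *GST* it ran from -1.06 to -0.81 outdoors and from -1.12 to -0.92 indoors (exact permutation p = 0.0711). The part of this measure in the level of the chaperones was not tested.

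**Figure D3:**
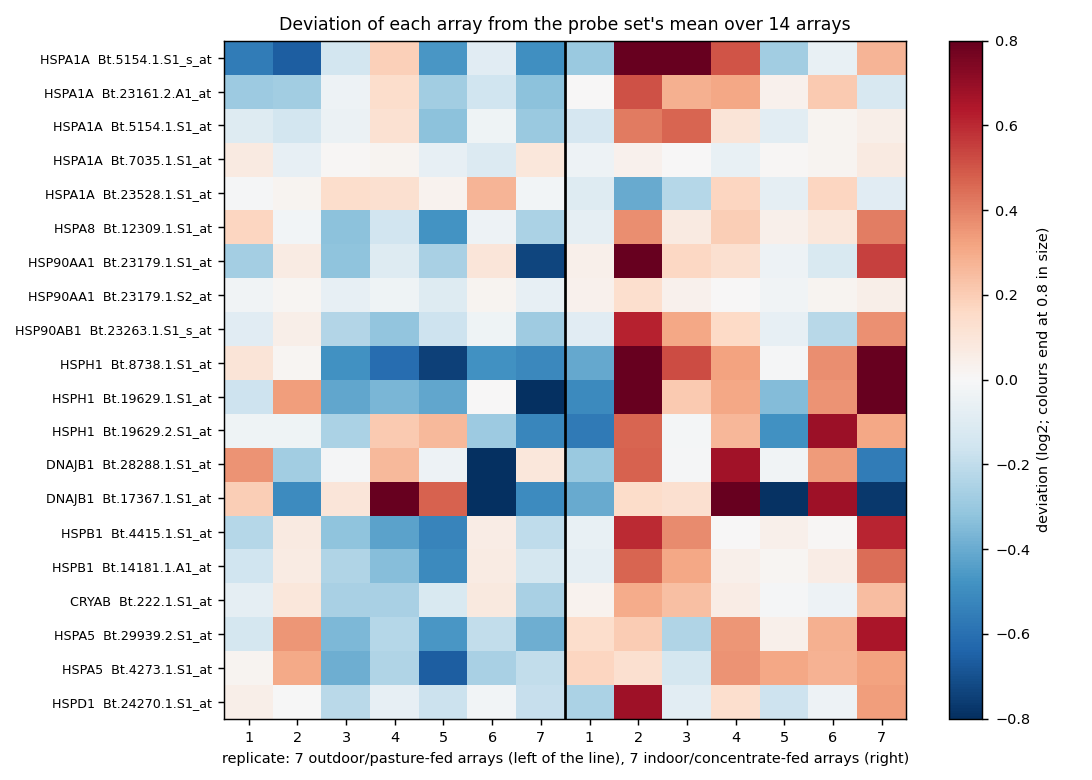
Deviation of each array from the mean of the probe set over 14 arrays (log2, colour scale ending at 0.8 in size), with the varying probe sets in rows and the arrays in columns, outdoor/pasture-fed on the left of the line. Indoor/concentrate-fed replicates 2 and 7 are red in most rows, whereas the *DNAJB1* rows have their own order of arrays, with indoor/concentrate-fed replicate 4 highest and outdoor/pasture-fed replicate 6 lowest.

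To see which members varied together between animals, the group means were removed and each gene was taken at its varying probe set with the highest mean. Of the 45 pairs, 38 had a positive Pearson r, the median r was 0.51, and 19 passed an adjusted p of 0.05 over the pairs in permutation tests within groups, all of them positive. By Spearman's rho 17 passed, and 16 passed by both. Among the closest were *HSP90AB1* and *CRYAB* (r = 0.87, adjusted permutation p = 0.000225, rho = 0.88, adjusted permutation p = 0.00045), *HSPA8* and *HSPH1* (r = 0.83, adjusted permutation p = 0.0024, rho = 0.84, adjusted permutation p = 0.00315), and *HSPB1* and *CRYAB* (r = 0.83, adjusted permutation p = 0.0074, rho = 0.64, adjusted permutation p = 0.0429). Without the 2 arrays farthest from the median of the first gene, these r were 0.90, 0.82 and 0.79, and the lowest r among the 19 pairs became 0.44.

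A set of 7 genes made up all of these pairs, namely *HSPA8*, *HSP90AA1*, *HSP90AB1*, *HSPH1*, *HSPB1*, *CRYAB* and *HSPD1*, each in 5 or 6 of them. *HSPA1A*, *DNAJB1* and *HSPA5* were in none at the probe sets used. *HSPA1A* was entered only at Bt.23161.2.A1_at, and its other varying probe sets, which did not all share that pattern, were not entered. For *HSPA5* the highest r was 0.61, with *HSPA8* (adjusted permutation p = 0.0784, rho = 0.57, adjusted permutation p = 0.103, r = 0.38 without the 2 farthest arrays). *DNAJB1* had its highest r, 0.51, with *HSPA1A* and its lowest, -0.43, with *CRYAB*. The count depended on the 2 high indoor/concentrate-fed arrays, since 6 pairs passed without replicate 2, 12 without replicate 7 and 3 without both, and the median r over the pairs was 0.42 without both. All genes were read from the same arrays, so that any quality shared by an array enters every pair.

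**Figure D4:**
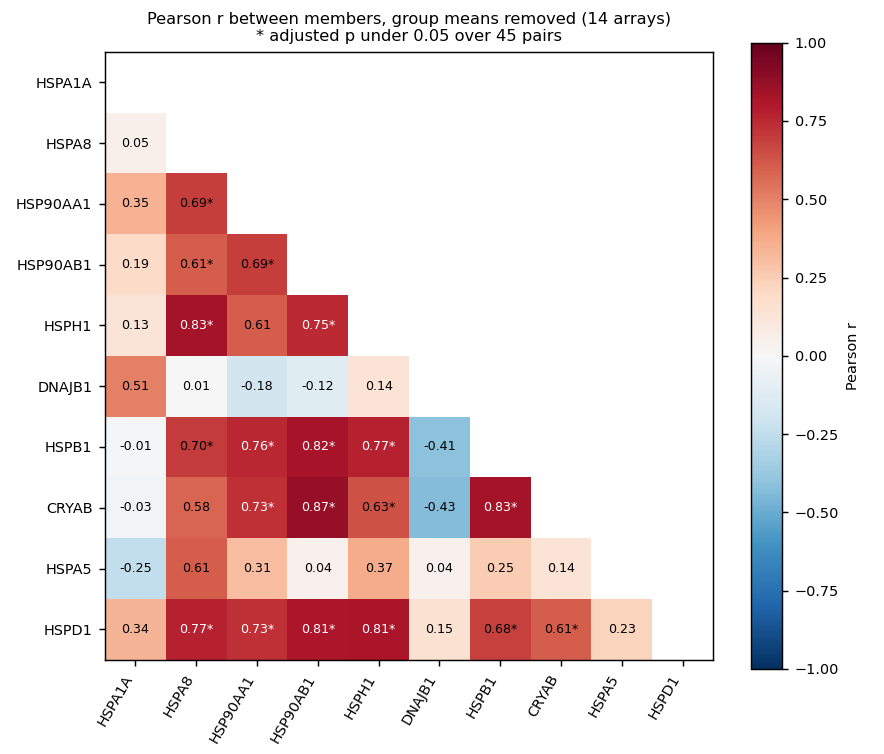
Pearson r (colour and number) between the 10 genes over 14 arrays after removal of the group means, each gene at its varying probe set with the highest mean, with an asterisk where the adjusted permutation p over 45 pairs is under 0.05. The 19 pairs with an asterisk lie among 7 genes, and the rows and columns of *HSPA1A*, *DNAJB1* and *HSPA5* hold none.

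The probe sets whose pattern was most like that of a member were sought among 5937 varying probe sets of other genes with 1 symbol, by Pearson r of group-centred values over the 14 arrays. Nearest to *HSPH1* were *DNAJA1* (r = 0.92), another J-domain partner of HSP70, and *CCT4* (r = 0.87), a subunit of the cytosolic chaperonin TRiC, followed by *GOSR2* (r = 0.87). Nearest to *HSPB1* were 2 probe sets of *FLNC* (r = 0.97 each), the filamin that cross-links actin at the Z-disc, and *MTMR4* (r = 0.93). For *CRYAB* they were 2 probe sets of *ECT2* (r = 0.93 and 0.91) and *PTOV1* (r = 0.89). *HSPD1* was nearest to *FAM32A* (r = 0.93), the TRiC subunit gene *CCT3* (r = 0.93) and *PATL1* (r = 0.92).

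The 3 genes outside the correlated set had other neighbours in pattern. *HSPA5* was nearest to *ST13* (r = 0.86), an HSP70-interacting co-chaperone, *SRSF3* (r = 0.83), a splicing factor, and *CTC1* (r = 0.82). The *ST13* probe set here was Bt.9739.1.S1_at, whereas the brighter probe set of that gene, Bt.15684.1.S1_at, was flat at 12.49. *DNAJB1* was nearest to *KLF11* (r = 0.89), a zinc finger transcription factor, *HYPK* (r = 0.85) and *TARDBP* (r = 0.78). *KLF11* itself passed the adjusted threshold between the groups, at 0.87 higher in outdoor/pasture-fed muscle (SE 0.11, limma adjusted p = 0.0202), whereas *DNAJB1* differed by -0.17. At Bt.23161.2.A1_at, the only probe set of the gene searched, *HSPA1A* had the least close neighbours, *UBE2F* (r = 0.75), *TMEM127* (r = 0.71) and *ASB8* (r = 0.68).

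Only for *CRYAB* and *HSPD1* was the adjacent gene in the ARS-UCD2.0 table also a chaperone gene that varied on the arrays. *HSPB2*, a small heat shock gene of striated muscle next to *CRYAB*, lay at 9.32, 9.43 and 9.66 in the outdoor/pasture-fed group and at 9.40, 9.84 and 10.65 in the indoor/concentrate-fed group (difference -0.49, SE 0.16, limma adjusted p = 0.278). Its group-centred r with *CRYAB* was 0.68 (adjusted permutation p = 0.00202, rho = 0.64, adjusted permutation p = 0.00988, r = 0.77 without the 2 farthest arrays). *HSPE1* encodes HSP10, the lid of the HSP60 chamber, and is the neighbour of *HSPD1*. Here r was 0.88 (adjusted permutation p = 0.00022, rho = 0.82, adjusted permutation p = 0.00196, r = 0.78 without the 2 farthest arrays), and the p-values are adjusted over these 2 relations. The difference of *HSPE1* between the groups was -0.07 (SE 0.05, limma adjusted p = 0.669).

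The rest of the chaperone system was described by 10 lists of other genes, with each gene at its probe set with the highest mean. The lists were chosen with earlier results of these data known, so their counts are no independent test. Of 137 listed genes, 104 were measured and 67 varied. Among these 67, 53 were lower and 14 higher in outdoor/pasture-fed muscle, with a median difference of -0.14. None passed the adjusted threshold. At an unadjusted p under 0.05, 24 (35.8%) were lower and 2 (2.99%) higher, beside the 10.7% and 9.23% of all varying probe sets given above. Without indoor/concentrate-fed replicates 2 and 7, 18 were lower and 4 higher by the same criterion. The share of all varying probe sets without these arrays is not given here.

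The cytosolic chaperonin TRiC, which folds actin and tubulin, and its partner prefoldin formed the list with the lowest median, -0.32. All 8 of its varying genes were lower, 6 of them at an unadjusted p under 0.05, a criterion met downwards by 10.7% of all varying probe sets. *CCT4* was the only gene of the 10 lists whose groups did not overlap, a separation seen downwards in 0.322% of all varying probe sets. Its values were 10.49, 10.59 and 10.77 in outdoor/pasture-fed and 10.78, 10.96 and 11.49 in indoor/concentrate-fed animals. It differed by -0.47 (SE 0.11, limma adjusted p = 0.176), with the exact permutation p at its smallest possible value, 0.000583. *CCT5* differed by -0.38 (SE 0.14, limma adjusted p = 0.313). Without the 2 high indoor/concentrate-fed arrays the median of this list was -0.12.

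In the list of ER chaperones and folding enzymes, 14 of 17 varying genes were lower, with a median of -0.14. An unadjusted p under 0.05 was reached downwards by 6 of them, beside 10.7% of all varying probe sets. *MANF* encodes an ER protein that is induced by ER stress and can be secreted. It lay at 10.29, 10.37 and 10.61 in outdoor/pasture-fed and 10.55, 10.67 and 10.94 in indoor/concentrate-fed muscle, with 6 outdoor/pasture-fed arrays below all indoor/concentrate-fed ones (difference -0.32, SE 0.07, limma adjusted p = 0.147). *CALR*, the calcium-binding lectin chaperone calreticulin, differed by -0.36 (SE 0.09, limma adjusted p = 0.214). The regulators of the unfolded protein response had 3 varying genes, 2 lower and 1 higher, with *PPP1R15A* and *HERPUD1* at an unadjusted p under 0.05, and their median of -0.14 lay between -0.25 (outdoor/pasture-fed replicate 2 left out) and -0.06 (indoor/concentrate-fed replicate 2 left out) when 1 array was omitted, and was 0.02 without indoor/concentrate-fed replicates 2 and 7. *HERPUD1*, a membrane protein of ER-associated degradation, was the higher one (0.14, SE 0.05). *PPP1R15A*, the stress-induced GADD34 subunit that restores translation, had the largest difference of any listed gene, -0.82 (SE 0.24, limma adjusted p = 0.242), and *SYVN1* was flat.

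Mitochondrial chaperones and proteases were split, with 4 lower and 4 higher, a median of 0.0056 and 1 gene, *YME1L1*, lower at an unadjusted p under 0.05 by a very small difference of -0.02 (limma adjusted p = 0.228), while *HTRA2* was flat. The sign of this median was not stable, as omitting 1 array gave from -0.02 (outdoor/pasture-fed replicate 1) to 0.04 (indoor/concentrate-fed replicate 4).

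Partners of HSP70 and HSP90 mostly had lower means outdoors as well. Of all varying probe sets, 52.5% were lower and 10.7% were lower at an unadjusted p under 0.05. All 4 varying genes of the BAG family and the HSP70 exchange factors were lower. An unadjusted p under 0.05 was met by 3, among them *HSPBP1* (-0.21, SE 0.06, limma adjusted p = 0.236) and *BAG6* (-0.19, SE 0.06, limma adjusted p = 0.272) together with *BAG3* (-0.14, SE 0.06), and the list had a median of -0.16. Of the HSP90 co-chaperones 8 of 10 were lower, with a median of -0.11 (-0.07 without outdoor/pasture-fed replicate 5). An unadjusted p under 0.05 was reached downwards by 1, near the share over all varying probe sets. That 1 was *STIP1*, which encodes HOP, the adaptor that links HSP70 to HSP90 (-0.56, SE 0.18, limma adjusted p = 0.274). *SGTA*, another adaptor, differed by -0.11 (limma adjusted p = 0.498). Other J-domain genes were lower in 4 of 6, with a median of -0.13 (-0.07 without indoor/concentrate-fed replicate 7, -0.20 without replicate 5 of that group) and only *DNAJA1* at an unadjusted p under 0.05 (-0.48, SE 0.20, limma adjusted p = 0.385). Their second named gene, *DNAJC18*, was flat.

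Among the other HSP70 and HSP110 genes, 3 of 4 were lower, with a median of -0.14 (-0.09 without outdoor/pasture-fed replicate 3). An unadjusted p under 0.05 was reached downwards by *HSPA4* and *HSPA14*, a criterion met downwards by 10.7% of all varying probe sets. *HSPA14* differed by -0.20 (SE 0.06, limma adjusted p = 0.27). *HSPA12B*, a distant HSP70 relative known from endothelial cells, was the one with a higher mean, at 8.02, 8.12 and 8.22 in outdoor/pasture-fed and 7.70, 7.90 and 8.10 in indoor/concentrate-fed muscle (difference 0.22, SE 0.06, limma adjusted p = 0.233). The other small heat shock genes were lower in 3 of 3, with a median of -0.15, and *HSPB2* and *HSPB8* had an unadjusted p under 0.05. *HSPB8*, a small heat shock protein that works with BAG3 in muscle, differed by -0.12 (SE 0.04, limma adjusted p = 0.299). Heat shock factors and their regulators were lower in 3 of 4, with a median of -0.08 (-0.04 without outdoor/pasture-fed replicate 5, -0.11 without replicate 7 of that group). In this list *VCP*, an ATPase that extracts ubiquitinated proteins, was the 1 gene at an unadjusted p under 0.05 (-0.16, SE 0.05, limma adjusted p = 0.234), and *HDAC6* was flat.

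**Figure D5:**
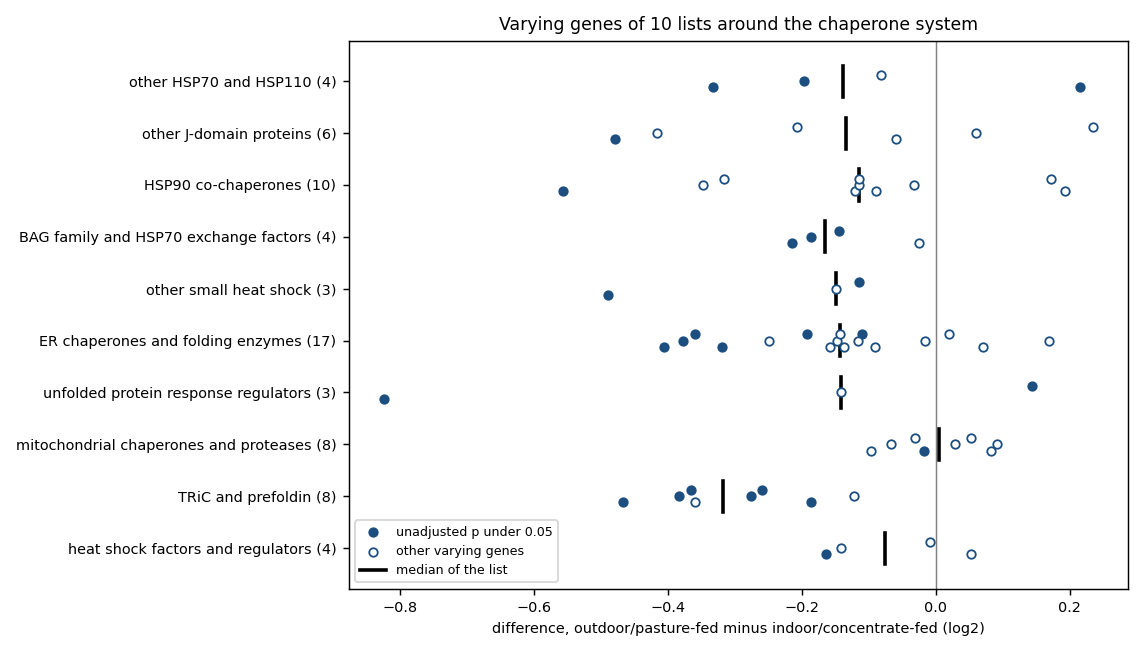
Difference in log2 expression (x axis, outdoor/pasture-fed minus indoor/concentrate-fed) of the 67 varying genes of 10 lists, with the number of varying genes in brackets, filled points at an unadjusted p under 0.05 and a black bar at the median of each list. The TRiC and prefoldin genes all lie below 0 around a median of -0.32, and the mitochondrial genes lie on both sides of 0.

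LD muscle is a mixed tissue, and in bulk RNA fewer cells of a type cannot be told apart from less RNA per cell. Markers of the endothelium had higher means outdoors, the opposite direction to the chaperones. Of all varying probe sets 9.23% were higher outdoors at an unadjusted p under 0.05. All 7 varying markers of the 8 measured were higher by this criterion, with a median difference of 0.43 and a lowest limma adjusted p of 0.147. Their summed level (log2 of the sum on the linear scale) ran from 12.37 to 12.91 in outdoor/pasture-fed and from 11.74 to 12.39 in indoor/concentrate-fed animals. *VWF*, a defining endothelial gene, was flat at 5.75, the lowest of the list, and *TEK* was the highest at 10.82. Their part in the chaperone differences was not tested.

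Slow fibre markers were higher outdoors at all 6 varying genes, with a median of 0.14 (0.03 without indoor/concentrate-fed replicate 3) and *ATP2A2* alone at an unadjusted p under 0.05. Their summed level was 16.27 to 16.38 in outdoor/pasture-fed and 15.93 to 16.35 in indoor/concentrate-fed muscle, with *TPM3* lowest at 11.05 and *TNNC1* highest at 14.32. Of the 5 varying fast fibre markers, 4 were lower, 3 of them at an unadjusted p under 0.05, beside 10.7% of all varying probe sets. The remaining 1, *MYH1*, was higher (unadjusted p = 0.000533 from limma, adjusted p = 0.148). The list had a median of -0.02 (-0.03 without indoor/concentrate-fed replicate 2). Its summed levels were 16.71 to 16.76 outdoors and 16.70 to 16.75 indoors, between *ACTN3* at 13.25 and *TNNC2* at 14.41. The general muscle fibre list, of which 5 of 7 genes were flat, had summed levels of 16.32 to 16.34 outdoors and 16.31 to 16.36 indoors and a median of 0.05 (0.02 without indoor/concentrate-fed replicate 6). The part of the fibre types in the results was not tested.

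For the remaining cell types the summed levels of the groups overlapped widely. Leukocyte markers lay at 9.56 to 10.18 in the outdoor/pasture-fed and 9.20 to 10.09 in the indoor/concentrate-fed group, with a median difference of 0.13 over 5 varying genes (0.20 without outdoor/pasture-fed replicate 2) and levels from 5.62 (*CD79A*) to 7.78 (*PTPRC*). Adipocyte markers lay at 11.21 to 12.46 and 10.74 to 12.61 in that order, with a median of -0.22 over 5 genes and levels from 5.75 (*LEP*) to 11.46 (*LPL*). This median was 0.04 without indoor/concentrate-fed replicate 1. *LPL*, the gene with the most weight in the summed adipocyte level, was 0.58 higher outdoors, whereas the other 4 had lower means. Fibroblast markers lay at 13.64 to 14.99 and 13.76 to 14.71, with a median of -0.02 over 6 genes and levels from 9.72 (*PDGFRA*) to 12.86 (*DCN*). Leaving out 1 array moved it to -0.18 (without outdoor/pasture-fed replicate 5) or up to 0.07 (without indoor/concentrate-fed replicate 3), so that the medians of both lists could change sign with 1 array. Red blood cell markers were mostly flat, with summed levels of 8.19 to 8.39 and 8.28 to 8.51, a median of -0.07 over 2 varying genes (-0.03 without indoor/concentrate-fed replicate 4, -0.12 without outdoor/pasture-fed replicate 2) and levels from 5.25 (*SLC4A1*) to 7.17 (*AHSP*). Across these 4 lists only *LPL*, which was higher outdoors, had an unadjusted p under 0.05.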

How the data were processed

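The deposited values are log2 expression values that the authors made by quantile normalisation and the factor analysis summary FARMS, and they were used as deposited. The authors' filter for informative probe sets needs probe-level data and was not repeated. The 112 control probe sets were left out. Gene symbols came from the platform annotation, in which 13292 probe sets have 1 symbol, 86 several and 10638 none. Of the first, 13263 gene identifiers matched the ARS-UCD2.0 gene table, and no symbol was updated.

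In R 4.3.3, limma 3.58.1 (lmFit, then eBayes) was fitted to all 24016 probe sets. Exact permutation tests, correlations (100000 permutations within groups, smallest p 1e-05) and counts were computed in Python 3.11.15 with numpy 2.4.6, pandas 2.3.3 and scipy 1.17.1. On simulated data for this comparison, with 24016 probe sets, the fit recovered 67% of changes of 0.5 and 93% of changes of 1, with 4 false calls among 164. The changes were planted at randomly drawn varying probe sets, whatever their SD, with noise that was independent between probe sets. The real data gave only 4 calls, so these rates do not give the power for the chaperone probe sets.

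Named were all 10 genes at every probe set, in each list the genes past the adjusted threshold or else the 2 with the smallest unadjusted p, the 3 nearest patterns of 7 of the genes, and the lowest and highest gene of each marker list. Named outside this rule, after their values were seen, were *HSPE1*, *HSPA4*, *BAG3*, *HERPUD1*, *ATP2A2* and *MYH1*. The genes and lists were chosen with earlier results of these data known. Alternatives were the replicate number as a block, a trended and robust prior, only varying or only brighter probe sets, array medians set equal, a further quantile normalisation, weights for arrays, control probe sets kept, another choice of probe set per gene, raw values for correlations, and leaving out each array. The search for heat shock elements in promoters was not run. The sample labels name no batch. The number of arrays limits the precision.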

Additional observations from a re-analysis of the deposited data

Results flagged for a closer look

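In a test of the highest and lowest array of each group, 5 of 72 groups held a value far from the others, and chance alone flags about 1 in 20 groups. Indoor/concentrate-fed replicate 2 was far above its group at *HSP90AA1* probe set Bt.23179.1.S2_at, at 13.19 against 13.10 for the next array. Outdoor/pasture-fed replicate 2 was far above its group at *HSPA5* probe set Bt.29939.2.S1_at, at 9.62 against 9.13, and also at *MANF*, at 10.61 against 10.41. Both of these genes encode ER proteins. Outdoor/pasture-fed replicate 5 was far below its group at *HSPBP1*, at 7.20 against 7.43, and indoor/concentrate-fed replicate 4 was far above its group at *SGTA*, at 9.35 against 9.17.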

How the results depend on the processing

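No member probe set passed the adjusted threshold under any alternative. The 13 member probe sets with an unadjusted p under 0.05 kept their direction in all 24 settings, with adjusted p from 0.0928 to 0.66. The count of all probe sets past the threshold was 4, and it became 33 among varying probe sets, 17 among brighter ones, 7 after centring on array medians, 2 with the replicate block, 0 with the exact permutation test in place of limma (whose smallest p is 0.000583), and 1 to 8 when 1 array was left out. With the replicate block 1 member probe set was higher in outdoor/pasture-fed animals at an unadjusted p under 0.05. Deviations of same-numbered animals had correlations of -0.18 to 0.24, and 2 of 7 were best with their own number. These few values gave no clear sign that the numbers pair the animals, but they cannot exclude it.

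Leaving out 1 array gave 0 to 1 member probe sets higher at that criterion (1 without indoor/concentrate-fed replicate 4 or 6), 2 to 4 listed genes higher, and 6 to 21 passing member pairs. Without both indoor/concentrate-fed replicates 2 and 7, chosen after seeing the data, there were 6 member probe sets lower, 4 listed genes higher and 3 passing pairs. Shares of all varying probe sets in these settings are not given here. Renewed quantile normalisation gave 12 pairs. The difference of *HSPA1A* probe set Bt.7035.1.S1_at reversed to 0.0072 without both arrays and ran from -0.0265 to 0.0063 when 1 array was left out. That of *DNAJB1* probe set Bt.17367.1.S1_at ran from -0.26 to 0.13, and was positive without indoor/concentrate-fed replicate 4 (0.13) or 6 (0.02) or outdoor/pasture-fed replicate 6 (0.09). The cause of these changes was not tested.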
